A study of Mus musculus with 35 samples.

Results

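The 10 genes described here are heat-shock chaperone genes (Hspa1a, Hspa1b, Hspa8, Hsph1, Hsp90aa1, Hspb1, Dnajb1 and Hspd1) and cold-inducible RNA-binding protein genes (Cirbp and Rbm3). They were taken by gene name from count tables that list 49568 names, and all 10 were among the 18063 genes with enough reads to be tested. RNA with poly(A) tails was sequenced from the hypothalamus of 35 male mice of strain B6/J, all sampled at ZT16, which is 16 h after lights-on. The groups were controls fed ad libitum (n = 10), controls fasted for 16 h from lights-on (n = 10), PER2-S662D mice fed ad libitum (n = 5), PER2-S662D mice fasted for 16 h (n = 5), and fasted mice labelled as Per2 knockouts (n = 5). S662D puts an aspartate in place of a serine of the clock protein PER2 to mimic phosphorylation. The labels do not say how either allele was made, what genotype the controls carry in detail, or how old the mice were.

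Heat-shock proteins are chaperones that bind unfolded proteins and help them to fold, and cells make more of the inducible ones when heat-shock factor 1 (HSF1) is activated by heat or other protein stress. HSP70 proteins hold unfolded stretches, J proteins such as Dnajb1 hand them over, Hsph1 exchanges the HSP70 nucleotide, HSP90 completes the folding of signalling proteins such as steroid receptors, small heat-shock proteins such as Hspb1 hold aggregating proteins, and Hspd1 folds proteins inside mitochondria. Cirbp and Rbm3 go the other way with temperature, since their messenger RNAs rise when cells are cooled slightly. In mammals both groups of genes are known to follow the daily rhythm of body temperature.

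Library depth ranged from 17959586 to 37027342 counts, and mitochondrial genes took 6.24% to 9.08% of them. Within each group even the most alike pair of libraries differed by more than sampling noise, with a chi-square per degree of freedom from 2.44 to 4.79 over the 5 groups. The 8 markers of hypothalamic neurons summed to between 478 and 693 CPM (a count scaled to the TMM-adjusted size of its library) in the 35 libraries, and the 5 pituitary markers to between 1.56 and 5.95 CPM. Of the latter, Prl, Gh and Cga were at 0 in 31, 33 and 14 libraries and Tshb and Lhb in none. Per2 itself stood at 30.3 ± 2.00 CPM (SD, n = 5) in the libraries labelled Per2 knockout and at 29.0 ± 2.45 CPM (SD, n = 10) in fasted controls, so these counts do not show the labelled loss. In S662D mice Per2 stood lower, at 18.8 ± 1.98 CPM fed and 19.9 ± 2.38 CPM fasted (SD, n = 5 each), beside 28.2 ± 1.87 CPM in fed controls (SD, n = 10). Counts over the whole gene would not show a deletion that leaves most of the messenger RNA in place. Library numbers in the file headers ran from 121 to 130 for controls 1 to 5, from 141 to 150 for controls 6 to 10, from 136 to 140 for the labelled Per2 knockouts and from 171 to 180 for S662D. Genotype and library range therefore cannot be told apart for the last 2 of these. In addition, replicates 2, 3 and 4 of both S662D groups carried an additional final digit in that number, whose meaning is not given in the sources used here. Nothing in the labels says whether the libraries of a group came from different cages or days, so p-values measure the spread between these libraries.

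Hspa8 and Hsp90aa1 were the most abundant of the 10 genes, and Hspa1a and Hspa1b the least. Levels between genes are compared per kilobase of exon and scaled for depth (RPKM). In fed controls Hspa8, the constitutive cytosolic HSP70, stood at 506 ± 17.6 RPKM (SD, n = 10) and Hsp90aa1, a cytosolic HSP90, at 347 ± 13.0 RPKM. The mitochondrial chaperonin gene Hspd1 stood at 70.3 ± 2.61 RPKM and Hsph1 at 42.2 ± 2.81 RPKM. These 4 ranges did not overlap with each other. Cirbp (30.3 ± 2.32 RPKM), Dnajb1 (23.5 ± 1.57 RPKM) and Rbm3 (19.2 ± 1.89 RPKM) came next, with overlapping ranges for Cirbp and Dnajb1 and for Dnajb1 and Rbm3. The small heat-shock protein gene Hspb1 reached 14.8 ± 1.72 RPKM, and its range met that of Rbm3. The inducible HSP70 genes Hspa1b (7.95 ± 2.36 RPKM) and Hspa1a (7.19 ± 1.61 RPKM) were lowest and could not be ranked against each other.

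**Figure D1:**
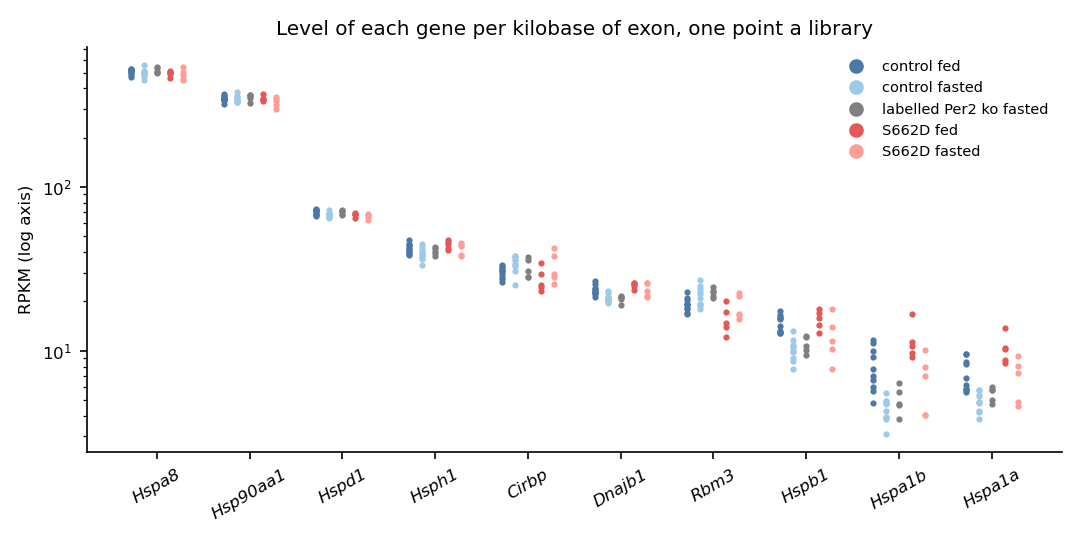
Level of each of the 10 genes in RPKM on a log axis, one point a library, with a colour for each group; genes are ordered by their mean over 35 libraries. Hspa8 lies near 506 RPKM in fed controls and Hspa1a near 7.19 RPKM, and the low genes at the right spread the most between groups.

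Several of these genes share sequence with near copies, which limits how far their counts are their own. Every alignment of a read with several alignments was counted, per the file headers. Hspa1a (chromosome 17, 34969190 to 34972156, minus strand, GRCm38 coordinates of the deposited tables) and Hspa1b (chromosome 17, 34956436 to 34959238, minus strand) are neighbours. Of the 50-base stretches of their exons, 66.3% of those in Hspa1a and 62.3% of those in Hspa1b also occur in exons of another gene, mostly of the other one of the pair. The exons of Hspa1a also overlap those of Gm20481 over 19.0% of their length, and Gm20481 received 0 counts. The share of such repeated stretches was 39.4% for Hspa8, 47.5% for Hsp90aa1, 50.1% for Hspb1 (chromosome 5, 135887919 to 135889563, plus strand) and 42.1% for Hspd1, mostly with pseudogenes. The Hspb1 copy Hsp25-ps1 itself received 39 counts against 9712 for Hspb1. The Hsp90aa1 copy Gm12346 received 56415 counts, which is 5.61% of those of Hsp90aa1. Hspd1-ps3 received 981 counts, 0.73% of those of Hspd1, and the Hspa8 copy Gm15459 received 0. Values of these 6 genes are therefore uncertain, those of Hspa1a and Hspa1b most. Where both genes of this pair are called, the counts of called genes below partly rest on the same reads more than once. For Hspa8, Hsp90aa1, Hspb1 and Hspd1 the share of stretches is not a share of counts, and the copies named took at most 5.61%. Counts of further copies are not given here. For Rbm3 (chromosome X, 8138975 to 8145880, minus strand) the share was 9.71%, for Dnajb1 (chromosome 8, 83608193 to 83612653, plus strand) 0.412%, and for Hsph1 and for Cirbp (chromosome 10, 80165985 to 80172786, plus strand) 0%.

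RefSeq promoters (GRCm38.p6) matched 7 of the 10 genes, and the 250 bases before the start were searched for pairs of heat-shock element units, GAANNTTC or TTCNNGAA, and for TCCCCGCC, a mild-cold response element described for Cirbp. Both strands were searched, and no matches overlap in the lines printed. Promoters of 4 genes are given, those of the HSP70 pair and Hspb1, which hold a heat-shock pair and were lower after fasting, and that of Cirbp, which holds the cold element. Capitals mark the matches, and each line is 5′ to 3′ on the strand of the gene.
Hspa1a, chr17:34972157-34972406, minus strand: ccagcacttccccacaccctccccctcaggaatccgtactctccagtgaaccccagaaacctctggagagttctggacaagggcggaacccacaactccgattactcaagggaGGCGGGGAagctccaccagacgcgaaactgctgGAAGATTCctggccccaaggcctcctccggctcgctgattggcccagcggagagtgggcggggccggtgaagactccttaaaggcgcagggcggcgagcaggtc
Hspa1b, chr17:34959239-34959488, minus strand: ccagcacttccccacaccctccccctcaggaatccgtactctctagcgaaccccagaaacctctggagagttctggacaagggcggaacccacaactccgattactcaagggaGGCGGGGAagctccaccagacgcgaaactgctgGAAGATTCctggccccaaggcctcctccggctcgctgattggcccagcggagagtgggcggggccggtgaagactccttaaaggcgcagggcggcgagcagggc
Hspb1, chr5:135887669-135887918, plus strand: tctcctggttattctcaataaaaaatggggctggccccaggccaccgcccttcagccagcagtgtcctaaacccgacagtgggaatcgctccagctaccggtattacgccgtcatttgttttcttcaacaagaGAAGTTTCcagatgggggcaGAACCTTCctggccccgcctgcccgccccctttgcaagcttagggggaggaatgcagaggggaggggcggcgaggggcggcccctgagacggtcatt
Cirbp, chr10:80167589-80167838, plus strand: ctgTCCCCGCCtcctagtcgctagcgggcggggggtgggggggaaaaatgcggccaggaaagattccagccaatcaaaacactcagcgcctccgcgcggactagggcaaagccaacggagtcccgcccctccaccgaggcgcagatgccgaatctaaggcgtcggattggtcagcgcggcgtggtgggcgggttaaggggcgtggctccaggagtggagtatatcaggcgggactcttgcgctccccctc
The Hspa1a and Hspa1b stretches are the same at 247 of 250 positions (98.8%). Each holds 1 GAANNTTC match that ends 97 bases before the start and 1 TCCCCGCC match on the opposite strand. Hspb1 holds 2 matches to the heat-shock pair, the nearer ending 90 bases before the start, and Hsph1 holds 1. No match to either pair lies in the windows of Dnajb1, which was also lower after fasting, Hspd1 and Cirbp. The Cirbp window, which lies inside the gene model of the deposited tables because the RefSeq start is 1854 bases downstream, holds 1 TCCCCGCC match. Of 32851 promoters of this length, 12.8% hold a heat-shock pair and 4.64% hold TCCCCGCC, and none of the 7 windows holds 3 such units in a row, which 0.466% of promoters do. A match of letters is a description and not evidence of binding.

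Hspa1a, Hspa1b, Hspb1 and Dnajb1 were lower in the hypothalamus of fasted than of fed controls. Of the 10 genes, these 4 fell and none rose, against 3.88% of all tested genes called in either direction (adjusted p below 0.05). The median log2 fold change of the 10 was −0.08, beside 0.00 over all genes. These genes changed by 1.80-fold at most.

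Hspa1b, an inducible HSP70, ran from 13.4 to 32.4 CPM in fed controls (median 20.6) and from 8.70 to 15.4 CPM in fasted controls (median 12.7). Fed libraries were high and widely spread, fasted libraries were low and close together, and the ranges overlapped at the edge. Its mean was 1.80-fold higher fed than fasted, and the fasting value was −0.85 ± 0.18 on the log2 scale (SE, adjusted p = 0.00236).

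Hspa1a, the neighbouring copy, ran from 16.6 to 28.4 CPM fed (median 19.3) and from 11.4 to 17.2 CPM fasted (median 14.5). The highest fasted libraries only just reached the lowest fed ones, and all 10 fasted libraries were below the fed median. The log2 fold change was −0.55 ± 0.13 (SE, adjusted p = 0.00936). With the counts of the pair summed to 1 gene, it was −0.70 ± 0.15 (SE, adjusted p = 0.00352).

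Hspb1, which holds aggregating proteins in a soluble form, ran from 13.2 to 17.96 CPM fed (median 15.3) and from 7.97 to 13.6 CPM fasted (median 10.5). In 9 of 10 fasted libraries it was below every fed library. The log2 fold change was −0.53 ± 0.11 (SE, adjusted p = 0.000900).

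Dnajb1, the J protein that works with the inducible HSP70, ran from 68.5 to 85.3 CPM fed (median 74.5) and from 62.7 to 73.8 CPM fasted (median 66.3). The shift was small but regular, with 8 of 10 fasted libraries below every fed one. The log2 fold change was −0.17 ± 0.04 (SE, adjusted p = 0.00780).

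**Figure D2:**
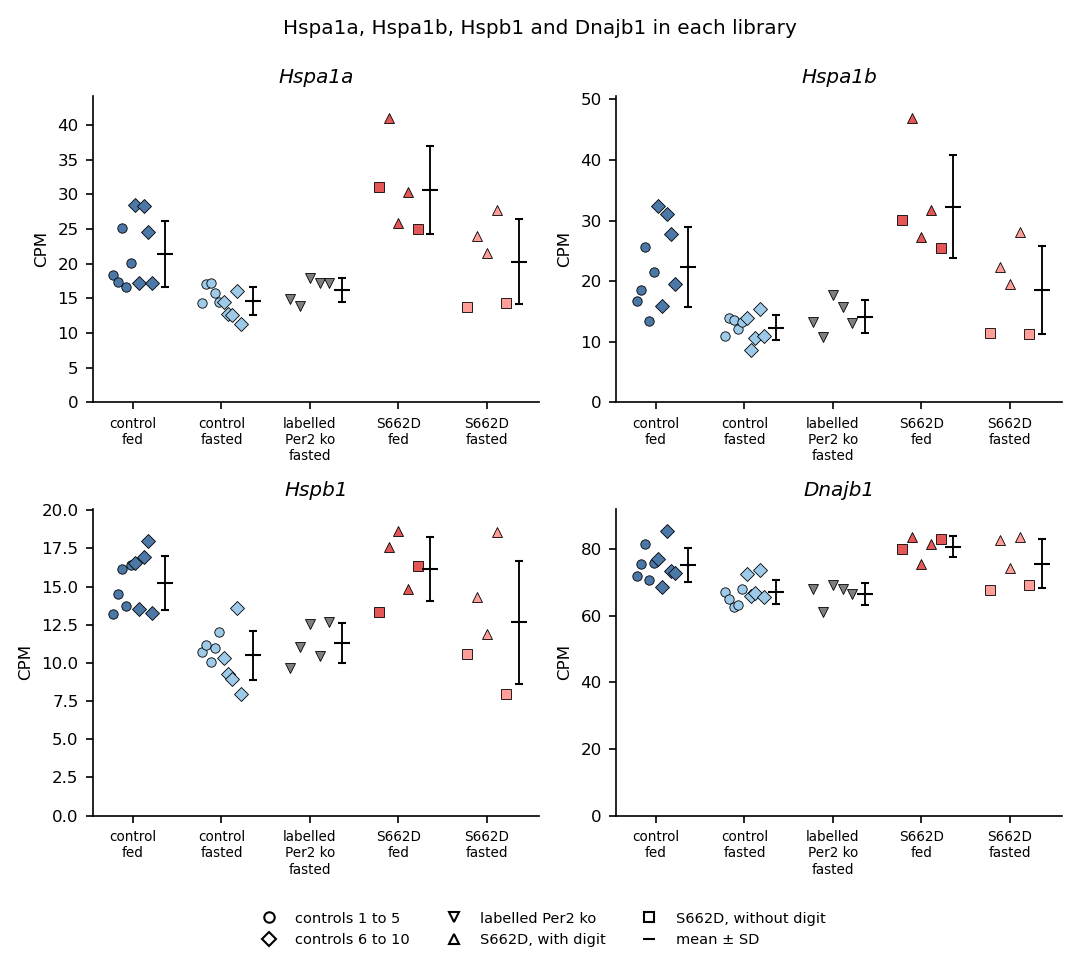
CPM of Hspa1a, Hspa1b, Hspb1 and Dnajb1 in each library by group; the axis starts at 0, the symbol gives the library-number range or the additional digit in it, and bars give mean ± SD. Fasted controls have lower means than fed controls for each gene, with overlapping ranges, and among fasted S662D libraries the squares, without the additional digit, lie low.

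The other heat-shock genes moved little in fasted controls. Hsph1, the HSP70 exchange factor, gave −0.10 (adjusted p = 0.274), Hspd1 −0.06 (adjusted p = 0.308), Hspa8 −0.04 (adjusted p = 0.747) and Hsp90aa1 −0.00 (adjusted p = 0.980) on the log2 scale. For Hspa8 the 95% interval ran from −0.10 to 0.03, and for Hsp90aa1 from −0.07 to 0.06. The point value was negative for all 8 heat-shock genes and positive for both cold-inducible genes. In bulk tissue a lower share of a cell type and less RNA per cell cannot be told apart. Of the markers of vessel cells (endothelial and mural), 6 of 6 had lower point values in fasted controls and 2 fell, Cldn5 by 0.43 and Kdr by 0.49 on the log2 scale. Their summed level was 130 to 160 CPM fed and 107 to 127 CPM fasted. Of the 5 microglia markers, Cx3cr1 and P2ry12 fell, by 0.41 and 0.34, and mitochondrial genes took 6.69% to 7.37% of counts fed and 6.81% to 8.70% fasted. The 5 choroid plexus markers, Ttr among them, all had higher point values in fasted controls (median 0.735 on the log2 scale). In S662D all 5 were lower on fasting (median −1.33). Their fasting response differed between controls 6 to 10 and controls 1 to 5 by a median of 3.55, 5 of them at an unadjusted p below 0.05. None of these choroid plexus differences was called. The part of these shifts in the chaperone values was not tested.

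Point values of these 4 genes were negative in both sets of controls, while the calls differed. Within controls 1 to 5, where 7.40% of all genes were called, the log2 fold change of Hspa1b was −0.59 (adjusted p = 0.154), that of Hspa1a −0.31 (adjusted p = 0.316), that of Hspb1 −0.43 (adjusted p = 0.0747) and that of Dnajb1 −0.21 (adjusted p = 0.0182). Within controls 6 to 10, where 1.71% were called, Hspa1b gave −1.08 (adjusted p = 0.0420), Hspa1a −0.78 (adjusted p = 0.04996), Hspb1 −0.63 (adjusted p = 0.0629) and Dnajb1 −0.13 (adjusted p = 0.240). Tested as a difference between the sets, the fasting response differed for 0 of the 10 genes by edgeR and by DESeq2, 2 of them at an unadjusted p below 0.05, although 10.6% of all genes differed. Fed libraries of the 2 sets differed in 0.631% of genes and fasted ones in 9.59%, and none of the 10 genes was among either, the nearest being Cirbp in fasted libraries with 0.21 (adjusted p = 0.0632).

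In S662D mice both genes of the HSP70 pair were called lower on fasting, close to the threshold. Of the 10 genes these 2 were called, against 2.64% of all genes, and they share reads, so they are not separate measurements. The median log2 fold change of the 10 was −0.08, beside 0.00 over all genes. Hspa1b was at 30.1, 46.9, 27.2, 31.7 and 25.6 CPM in fed replicates 1 to 5 and at 11.4, 22.3, 19.6, 28.2 and 11.3 CPM in the fasted ones. One fasted library reached the fed range and 2 fasted libraries were far below it. The log2 fold change was −0.83 ± 0.23 (SE, adjusted p = 0.0491). Hspa1a was at 31.1, 40.9, 25.9, 30.4 and 25.0 CPM fed and at 13.7, 24.0, 21.6, 27.7 and 14.4 CPM fasted, again with 1 fasted library inside the fed range. The fasting value was −0.62 ± 0.17 (SE, adjusted p = 0.0477).

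Both calls lie close to the threshold. Leaving out 1 library ended the Hspa1a call for 21 of 35 libraries (3 fed controls, 7 fasted controls, 5 labelled Per2 knockouts, 3 fed S662D and 3 fasted S662D; adjusted p from 0.0501 to 0.214). The Hspa1b call ended for 25 of 35 libraries (5, 8, 4, 4 and 4 of the same groups; adjusted p from 0.0504 to 0.224). Summed as 1 gene the pair gave −0.71 (adjusted p = 0.0515). With the additional digit described above as a term in the fit, both passed more clearly, Hspa1b with −0.87 (adjusted p = 0.0114) and Hspa1a with −0.64 (adjusted p = 0.0116). Hspb1 was at 13.3, 17.6, 18.6, 14.9 and 16.4 CPM fed and at 10.6, 14.3, 11.9, 18.6 and 7.97 CPM fasted in S662D. The groups overlapped, and the log2 fold change of −0.37 ± 0.14 (SE) did not pass the test (adjusted p = 0.198); it passed without fasted S662D replicate 4, the highest one (−0.54, adjusted p = 0.0116). Dnajb1 gave −0.10 (adjusted p = 0.449).

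No difference between the genotypes in the fasting response was found for these genes. The interaction test called 0% of all genes by edgeR (0 of 18063, 1151 of them at an unadjusted p below 0.05, and 0 by DESeq2) and 0 of the 10. The difference in the response of Hspa1b was 0.03 with a 95% interval from −0.57 to 0.62, that of Hspa1a −0.07 (−0.51 to 0.37) and that of Hspb1 0.17 (−0.19 to 0.52).

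**Figure D3:**
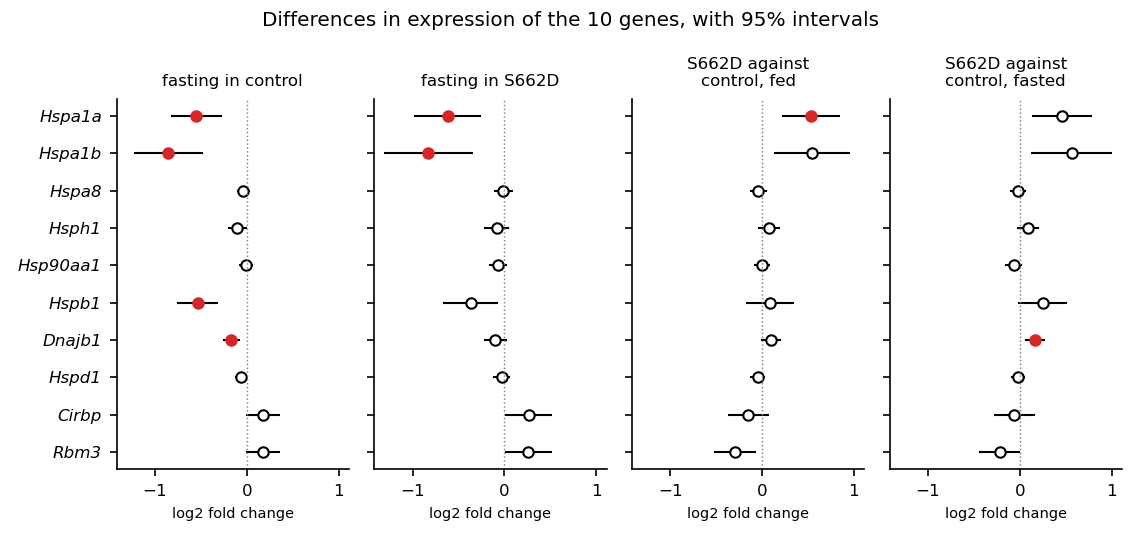
Log2 fold change with its 95% confidence interval for the 10 genes in 4 comparisons; filled red points have an adjusted p below 0.05. Hspa1a and Hspa1b lie at −0.55 and −0.85 on fasting in controls and above 0 in S662D against controls, while Hspa8 and Hsp90aa1 lie near 0 throughout.

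Hspa1a was called higher in fed S662D mice than in fed controls, and the call was lost in 14 of 49 alternatives. Of the 10 genes, 1 was called in fed mice, against 4.69% of all genes. A count of 1 in 10 does not set these genes apart from that share. The median log2 fold change was 0.04 beside −0.01 over all genes. All 5 fed S662D libraries, from 25.0 to 40.9 CPM, were above the control median of 19.3 CPM, but the ranges overlapped because 3 of 10 control libraries were as high. The log2 fold change of Hspa1a was 0.53 ± 0.15 (SE, adjusted p = 0.0357). Hspa1b had a similar value, 0.54 ± 0.20 (SE), and did not pass (adjusted p = 0.101); the summed pair gave 0.53 (adjusted p = 0.0649). The Hspa1a call ended without any one of fed control replicates 1, 2, 4, 5 and 10 or fed S662D replicates 2, 3 and 4, where it ranged from 0.40 to 0.58 (adjusted p from 0.0541 to 0.213). It gave 0.66 (adjusted p = 0.0204) against controls 1 to 5 and 0.41 (adjusted p = 0.399) against controls 6 to 10. It was 0.22 (adjusted p = 0.859) after fitting the additional digit and 0.39 (adjusted p = 1.00) without the libraries that carry it.

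Among fasted mice Dnajb1 was the called gene. Again 1 of 10 was called, against 5.57% of all genes, and the median was 0.04 beside −0.00 over all genes. Dnajb1 was at 67.8, 82.6, 74.4, 83.6 and 69.2 CPM in fasted S662D replicates 1 to 5, and 3 of these were above every fasted control. The log2 fold change was 0.17 ± 0.05 (SE, adjusted p = 0.0319), and it was lost without any one of fasted control replicates 3 and 4 or fasted S662D replicates 2, 3 and 4 (0.13 to 0.18, adjusted p from 0.0524 to 0.191). It was 0.11 (adjusted p = 0.701) after fitting the digit and 0.03 (adjusted p = 0.997) without the libraries that carry it. Hspa1a gave 0.46 (adjusted p = 0.0765) and Hspa1b 0.57 (adjusted p = 0.112). Both passed when fasted S662D replicate 1 or replicate 5 was left out (0.57 and 0.57 for Hspa1a, 0.70 and 0.71 for Hspa1b, adjusted p from 0.0170 to 0.0349), and Hspb1 passed without replicate 5 (0.39, adjusted p = 0.0291). The summed level of the vessel markers was also higher in S662D, 143 to 186 CPM fed and 123 to 186 CPM fasted, with 3 of 6 markers called higher in each state. Its part in these values was not tested.

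Between the libraries labelled Per2 knockout and fasted controls, no difference was called in these genes. None of the 10 passed by edgeR or DESeq2 and none had an unadjusted p below 0.05, while 0.0277% of all genes were called. Hspa1b was at 13.2, 10.7, 17.8, 15.8 and 13.1 CPM in their replicates 1 to 5, a range that covers most fasted controls. The 95% interval of its log2 fold change ran from −0.26 to 0.64, that of Hspa1a from −0.18 to 0.48, and that of Rbm3 from −0.15 to 0.27. Against fasted S662D mice 1 of 10 was called, Dnajb1 with −0.18 ± 0.06 (SE, adjusted p = 0.0427), where 7.34% of all genes were called. That call was lost without any one of labelled knockout replicates 1, 2, 4 and 5 or fasted S662D replicates 2, 3 and 4 (−0.19 to −0.14, adjusted p from 0.0557 to 0.173). It was −0.12 (adjusted p = 0.448) after fitting the digit and −0.04 (adjusted p = 0.886) without the S662D libraries that carry it. Of the 6 vessel markers 4 were called lower in the labelled knockouts than in fasted S662D mice, with a median of −0.41, and their part in the Dnajb1 value was not tested.

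The S662D libraries split in these genes along the additional digit of the library number, a comparison chosen after seeing the data. Among fasted S662D mice, 7 of the 10 genes differed between the 3 libraries with that digit and the 2 without it, against 8.04% of all genes. Hspa1b was at 19.6 to 28.2 CPM with the digit and at 11.3 and 11.4 CPM without it, a log2 difference of 1.04 ± 0.29 (SE, adjusted p = 0.0231). Hspa1a (0.80), Hspb1 (0.69), Dnajb1 (0.23) and Hsph1 (0.23) were also higher with the digit. Cirbp and Rbm3 were lower with it.

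In those fasted mice Cirbp was at 76.7, 66.6 and 73.4 CPM with the digit and at 98.2 and 110.3 CPM without it, a log2 difference of −0.53 ± 0.10 (SE, adjusted p = 0.00110). Rbm3 was at 77.4, 73.5 and 78.9 CPM with it and at 102.2 and 106.3 CPM without it, a difference of −0.44 ± 0.13 (SE, adjusted p = 0.0320). Neither pair of ranges overlapped, as was so for 34.4% of all genes in this comparison of 3 with 2. Among fed S662D mice, Cirbp (−0.40, adjusted p = 0.0187) and Rbm3 (−0.46, adjusted p = 0.0348) were lower with the digit as well, 2 of 10 genes against 6.74% of all, and the heat-shock genes were not called. The fasting response itself was called different with and without the digit for 0% of genes, 1407 of 18063 having an unadjusted p below 0.05, and 3 of the 10.

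Some other measures moved with the digit. When fasted, the libraries with it had 6.85% to 6.93% mitochondrial counts and those without it 7.70% to 8.27%, the total was 21615313 to 26857490 counts with it and 29850818 to 34081435 without it, and the vessel markers summed to 148 to 186 CPM and 123 to 143 CPM. Microglia markers summed to 161 to 177 CPM with it and 147 to 158 CPM without it in these fasted mice, and hypothalamic neuron markers to 480 to 640 CPM and 663 to 669 CPM. In fed mice the vessel markers summed to 173 to 186 CPM with it and 143 to 154 CPM without it, astrocyte markers to 1890 to 2050 CPM and 1720 to 1740 CPM, and oligodendrocyte markers to 7010 to 7470 CPM and 8170 to 8380 CPM. Their part in the gene values was not tested. The comparison with controls depended on which S662D libraries were used. With the digit alone, 4 of 10 genes differed from fed controls, where 16.9% of all genes did, and 7 of 10 from fasted controls, where 17.1% did. Without it 0 of 10 differed in either state, where 0.0854% and 0.112% of all genes did. Fasted S662D libraries without the digit gave −0.12 for Hspa1b (adjusted p = 0.997) and those with it 0.92 (adjusted p = 0.00328).

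Cirbp and Rbm3 had higher point values in fasted than in fed mice of both genotypes without passing the test. In controls Cirbp ran from 68.9 to 86.7 CPM fed (median 79.6) and from 66.0 to 99.1 CPM fasted (median 90.6). One fasted library was below all fed ones and 6 of 10 were above them. The fasting value was 0.17 ± 0.09 on the log2 scale (SE, adjusted p = 0.376). Within controls 1 to 5 it was −0.02 and within controls 6 to 10 it was 0.37 (adjusted p = 0.126). The difference between the sets was 0.38 ± 0.16 (SE, adjusted p = 0.126), and it passed with only the groups compared (adjusted p = 0.00282). In an alternative added after seeing the data, library-number ranges and the digit were fitted as groups and averaged. The fasting value of all controls was then 0.17 and passed (adjusted p = 0.0447, within a range from 0.0447 to 0.937 over its alternatives).

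Rbm3, whose protein protects synapses in cooled mice, ran from 78.6 to 107.8 CPM fed (median 90.1) and from 84.3 to 127.0 CPM fasted (median 101.4) in controls. The ranges overlapped over most of their width, and the log2 fold change was 0.18 ± 0.09 (SE, adjusted p = 0.341). In S662D mice the fasting values were 0.26 ± 0.12 for Cirbp (SE, adjusted p = 0.296) and 0.26 ± 0.12 for Rbm3 (SE, adjusted p = 0.315). Fed S662D mice had Rbm3 at 94.7, 69.2, 65.9, 56.8 and 81.5 CPM, 4 of 5 below the fed control median and 1 above it. That difference of −0.29 ± 0.11 (SE) did not pass (adjusted p = 0.0993), and it passed without fed S662D replicate 1 (−0.40, adjusted p = 0.0158). It was −0.49 (adjusted p = 0.000689) with only the libraries that carry the digit and −0.03 (adjusted p = 1.00) with only those that do not.

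**Figure D4:**
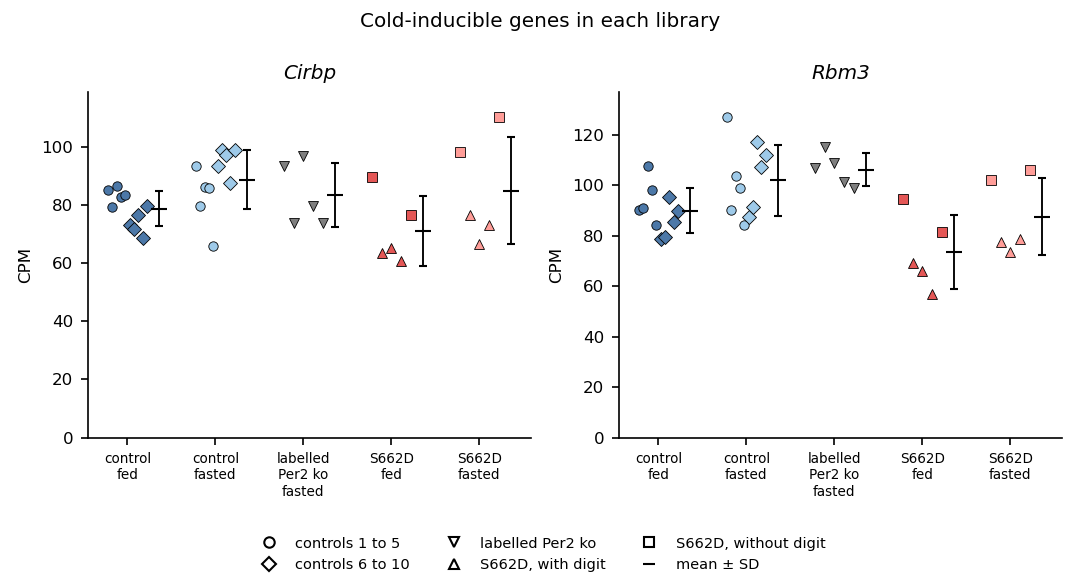
CPM of Cirbp and Rbm3 in each library by group; the axis starts at 0, symbols give the library-number range or the additional digit, and bars give mean ± SD. The fed and fasted groups overlap, and S662D libraries with the digit (triangles) lie below those without it (squares), as at 66.6 to 76.7 CPM against 98.2 and 110.3 CPM for Cirbp when fasted.

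Correlations between heat-shock and cold-inducible genes within groups were negative. Once library ranges and the digit were taken into account, several were near 0 and others were more negative. Over 35 libraries, with the mean of each group removed, log2 CPM of the 28 pairs of heat-shock genes correlated with r from 0.00 to 0.93 (median 0.46), and that of the 16 pairs of a heat-shock and a cold-inducible gene with r from −0.71 to −0.13 (median −0.35). Cirbp and Rbm3 correlated with r = 0.74. By correlation with Cirbp, Rbm3 ranked 210 among all tested genes, and by correlation with Rbm3, Cirbp ranked 7. With the mean of each library-number range and digit class removed, the medians were 0.43 and −0.24 and the pair Cirbp and Rbm3 had 0.51, while single mixed pairs ran from −0.63 to 0.08. Hspa1a, Hspa1b and Dnajb1 then correlated with Cirbp at 0.07, 0.04 and 0.08 and with Rbm3 at 0.08, 0.05 and 0.07. Hspa8, Hsp90aa1 and Hspd1 instead became more negative with both. Hsp90aa1 went from −0.313 to −0.626 with Cirbp and from −0.192 to −0.367 with Rbm3. Points share their library, its depth and its dissection, and Hspa1a and Hspa1b share reads, so these values are descriptions. Within the 10 fed controls alone, of 4 relations tested only that of Hspa1a and Hspa1b passed (r = 0.94, rho = 0.90, permutation p = 0.0001 and 0.000760, adjusted over 8 relations p = 0.000800 and 0.00608, and r = 0.89 without the 2 most distant libraries). Shared reads alone give this pair a positive r, so the test cannot separate shared counting from shared regulation. Hspa1b and Cirbp had r = −0.36 fed (rho = −0.27, permutation p = 0.297 and 0.443, adjusted p = 0.396 and 0.506; r = −0.16 without the 2 most distant) and r = −0.54 fasted (rho = −0.60, permutation p = 0.0694 and 0.0731, adjusted p = 0.129 and 0.190; r = −0.58 without them), which did not pass. Hspa1b and Rbm3 had r = −0.08 fed (rho = −0.20, permutation p = 0.816 and 0.582, adjusted p = 0.816 and 0.582; r = 0.48 without the 2 most distant) and r = −0.24 fasted (rho = −0.39, permutation p = 0.492 and 0.266, adjusted p = 0.562 and 0.355; r = −0.86 without them). Their values thus turned on the 2 most distant libraries. Cirbp and Rbm3 had r = 0.66 fed (rho = 0.56, permutation p = 0.0320 and 0.0952, adjusted p = 0.0854 and 0.190; r = 0.60 without the 2) and r = 0.55 fasted (rho = 0.44, permutation p = 0.0804 and 0.205, adjusted p = 0.129 and 0.328; r = 0.08 without them). In fasted controls Hspa1a and Hspa1b had r = 0.71 (rho = 0.76, permutation p = 0.0236 and 0.0154, adjusted p = 0.0854 and 0.0615; r = 0.77 without the 2).

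**Figure D5:**
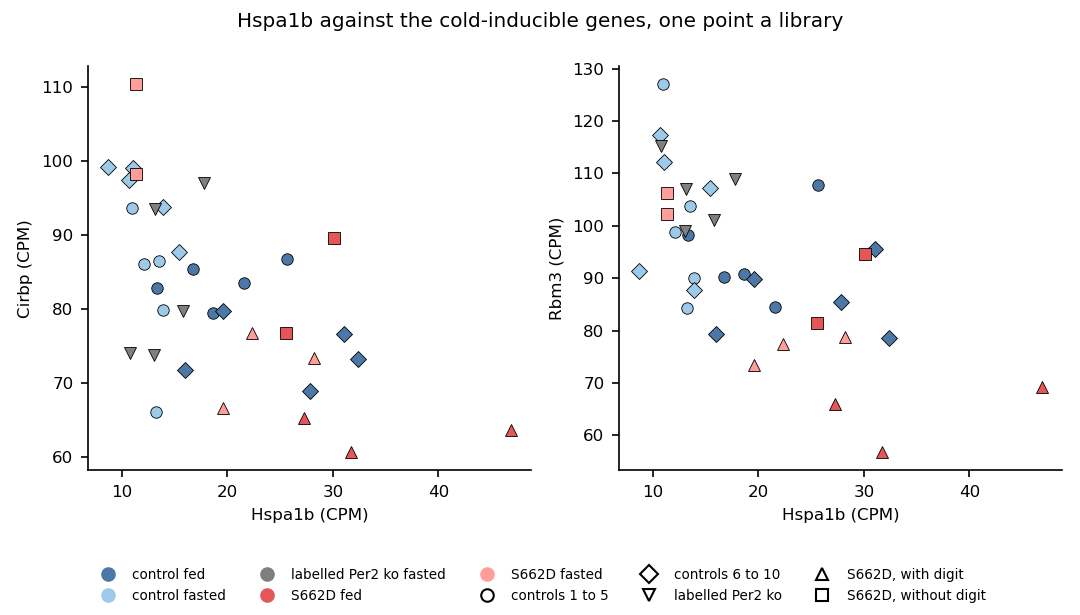
Cirbp and Rbm3 against Hspa1b, both in CPM, one point a library, with colours for groups and symbols for library-number ranges and the digit; the axes do not start at 0. Fasted control and labelled knockout libraries lie at low Hspa1b, and fed S662D libraries with the digit lie at high Hspa1b with low Cirbp and Rbm3, the farthest at 46.9 CPM of Hspa1b.

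Genes outside the 10 whose log2 CPM followed each of 6 of them most closely over the 35 libraries, group means removed, were as follows. Means of library-number ranges and digit classes were not removed here, so differences between those classes enter these values. Hspa1a was followed by Papd7 (r = 0.82), Zbtb40 (0.70) and Stt3b (0.69), and Hspa1b by Papd7 (0.77), Zbtb40 (0.75) and P4ha1 (0.74). Hsph1 was followed by Grin3a (0.77), Pdia4 (0.76) and Smarcc1 (0.76), and Dnajb1 by Dedd2 (0.72), the small heat-shock protein gene Cryab (0.71) and Ankrd34a (0.67). For Cirbp, Pabpn1, which encodes a poly(A)-binding protein, and Foxred1 were among the closest (0.88 each). Rbm3 was followed by Zfas1 (0.80), Chchd7 (0.79) and Gas5 (0.77), of which Zfas1 and Gas5 host small nucleolar RNAs.

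Few other genes of the chaperone network were called, and the shares of all genes called in each comparison, given above, were 3.88% and 2.64% on fasting in controls and S662D, 4.69% and 5.57% for S662D against fed and fasted controls, and 7.34% for labelled knockouts against S662D. Of 16 further genes known to be driven by HSF1, 2 fell on fasting in controls and none rose, Cryab, a small heat-shock protein of glia and lens, by 0.37 (adjusted p = 7.95e-05) and Serpinh1, a collagen chaperone, by 0.38 (adjusted p = 0.000272). The median of the 16 was −0.08. Exons of Cryab overlap those of Hspb2 over 17.0% of their length, which makes its values uncertain. Serpinh1 also fell in S662D, by 0.51 (adjusted p = 0.000579), the one gene of 16 called there. Against controls, S662D mice had more Bag3, an HSP70 co-chaperone, by 0.44 fed (adjusted p = 0.00991) and 0.49 fasted (adjusted p = 0.00397), and more Cryab when fasted, by 0.38 (adjusted p = 0.00327). Labelled knockouts had less of both than fasted S662D mice, Bag3 with −0.64 and Cryab with −0.37. Dependence on the digit or on single libraries was not tested for these or the list genes below. Without the S662D libraries that carry the digit, 0.0854% of all genes differed from fed controls and 0.112% from fasted controls. Genotype and library range also cannot be told apart in these comparisons.

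Of 15 co-chaperones of HSP70 and HSP90, only Fkbp5 was called on fasting, higher in fasted controls by 1.02 ± 0.13 (SE, adjusted p = 3.00e-06) and in fasted S662D mice by 0.97 ± 0.18 (SE, adjusted p = 0.00120); it binds HSP90 in steroid receptor complexes and is itself a glucocorticoid-induced gene. In S662D mice 1 co-chaperone was higher than in fasted controls, and labelled knockouts had 1 higher than fasted S662D mice. Of 13 other J proteins, Dnaja4 (−0.21) and Dnajb2 (−0.24) fell in fasted controls and none was called on fasting in S662D. Exons of Dnaja4 overlap those of Wdr61 over 44.1% of their length, which makes its value uncertain. Of these 13, 2 were lower in S662D mice than in fed controls, and 1 was higher and 2 were lower in labelled knockouts than in fasted S662D mice. Of 10 other HSP70 and HSP90 genes, none was called on fasting in either genotype, and Hspa12a was higher in fasted S662D mice than in fasted controls by 0.20 (adjusted p = 0.0232). Labelled knockouts had 1 of the 10 lower than fasted S662D mice. The 6 genes of the heat-shock factors and the factor-binding protein Hsbp1, and the 8 genes of the TRiC chaperonin, had no call in any of the 8 comparisons.

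Among relatives of the cold-inducible genes, Carhsp1, a cold-shock domain protein, rose on fasting by 0.33 ± 0.05 in controls (SE, adjusted p = 1.07e-05) and by 0.46 ± 0.07 in S662D (SE, adjusted p = 2.05e-05). Of the 7 cold-shock domain genes tested, it was the only one called in controls, and Csdc2 was the other one called in S662D (0.18, adjusted p = 0.0429). Against fasted controls, fasted S662D mice had 1 of the 7 higher and 1 lower, and labelled knockouts had 1 lower than fasted S662D mice. Of the 3 genes Rbmx, Rbmxl1 and Rtn3, relatives and a target of Rbm3, none was called on fasting in either genotype. In labelled knockouts 1 of the 3 was higher than in fasted S662D mice.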

How the data were processed

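The authors deposited 1 table of read counts per gene for each library; per the file headers they were made with featureCounts 2.0.1 on GENCODE vM12 gene models (GRCm38), summed by gene name, with no strand given and with every alignment of multi-mapping reads counted. STAR 2.7.10b is named in the submitters' processing notes. The counts were tested in one edgeR 4.0.16 model (TMM scaling, filterByExpr, robust quasi-likelihood test) over all 5 groups, with Benjamini-Hochberg adjustment over 18063 genes and a threshold of 0.05. The sign and recovery of its calls were checked on simulated counts with the same relative spread for every gene and no library ranges or digit. That check does not bear on calls near the threshold. CPM and RPKM were computed from TMM-scaled totals and the exon lengths per the file headers. The lowest count of any of the 10 genes in a library was 148. The 10 genes, the gene lists and the rule for named genes (all 10, and at most 4 called genes per list and comparison) were chosen with earlier results of these data known. Not every called gene of the lists is named. Alternatives were DESeq2 1.42.0, other scalings, no filter, only the groups compared, the replicate block, single library sets and leaving out each library. The comparisons along the additional digit were added after seeing the data. Correlations within controls used 100000 permutations (two-sided). One gene that the rule for the most similar genes selects is not reported here.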

Additional observations from a re-analysis of the deposited data

Results flagged for a closer look

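In fed S662D mice, Hspa1b of replicate 2 stood at 46.9 CPM, apart from the next library at 31.7 CPM by 0.713 of the range of the group, above the limit of 0.71 for 5 samples. Such a gap arises by chance in about 1 of 20 groups, 50 groups were examined and 1 was found. That library carries the additional digit, has the most counts of the 35 (37027342) and had Ttr at 620 CPM. The additional digit of the library number separated S662D libraries in 9 of the member values, each tested as a difference: when fasted Hspa1a by 0.80, Hspa1b by 1.04, Hsph1 by 0.23, Hspb1 by 0.69, Dnajb1 by 0.23, Cirbp by −0.53 and Rbm3 by −0.44 on the log2 scale, and when fed Cirbp by −0.40 and Rbm3 by −0.46. What the digit stands for was not tested.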

How the results depend on the processing

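The fall of 4 genes on fasting in controls held when any 1 library was left out (4 each time), and the count was 1 in controls 1 to 5 alone and 2 in controls 6 to 10 alone. Of 80 member values with a test, 9 were called and none of these 9 changed sign under any alternative run; 32 of the 71 others did. For fasting in S662D the count of 2 ranged from 0 to 3 on leaving out single libraries. It was 0 with no low-count filter, with only the groups compared, with S662D libraries with the digit alone, with those without it, without the libraries with Ttr above 500 CPM and without those with over 8% mitochondrial counts, and 4 with library sets as groups, averaged. For S662D against fed controls the count of 1 ranged from 0 to 2 on leaving out single libraries. It was 0 with no low-count filter, with only the groups compared, with controls 6 to 10 alone, without the digit, after fitting the digit and without the Ttr libraries, 2 with DESeq2 and with controls 1 to 5 alone, and 4 with the digit alone. For S662D against fasted controls the count of 1 ranged from 0 to 4 on leaving out single libraries. It was 0 with no scaling beyond library size, with only the groups compared, with controls 6 to 10 alone, without the digit and after fitting it, 3 with DESeq2 and without the libraries with high mitochondrial counts, and 7 with the digit alone. For labelled Per2 knockouts against S662D the count of 1 ranged from 0 to 1 on leaving out single libraries. It was 0 with no scaling, no filter, only the groups compared, without the digit, after fitting it and without either set of libraries above, and 5 with the digit alone. The difference between control sets in the fasting response, 0 genes, reached 1 with only the groups compared (Cirbp, adjusted p = 0.00282). That count ranged from 0 to 1 on leaving out single libraries (Hsph1, −0.25, adjusted p = 0.0457, without fasted control replicate 1). The cause of these changes was not tested, beyond the fewer libraries some settings leave. With the replicate number as a block the labelled Per2 knockout count was 0 and no other count changed; same-numbered fed and fasted controls correlated with r from −0.191 to 0.0587 in their deviations from the group means, 0 of 10 of them over 0.1, and 0 of 10 correlated best with their own number. For fed and fasted S662D r ran from −0.109 to 0.16 (2 of 5 over 0.1, 1 of 5 best with its own) and for fed controls and fed S662D from −0.0516 to 0.236 (3 of 5 and 3 of 5). No set of pairs was over 0.1 throughout, so the numbers were not taken to pair the libraries. On fasting in S662D, 68.5% of called genes were higher with TMM scaling and 44.4% with none. Depth limits Hspb1 and the HSP70 pair most, since their counts ran from 148 to 1737 per library.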
